A study of Scophthalmus maximus with 8 samples.

Results

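Of the 21263 turbot genes in the count tables, 49 held nearly the same count from the embryo to the juvenile, and these constant genes are described here. They were chosen by their measured values. The counts of each library were divided by a median-of-ratios size factor, which sets the typical gene to the same level in every library. A gene was taken when its mean normalized count over the 8 libraries was at least 500, the largest of its 8 normalized counts was at most 25% above the smallest, and no stage mean reached 20000. Of the 6345 genes with a mean of at least 500 and every stage mean under 20000, called the well-counted genes below, the 49 were 0.772%. Only 1 more gene met the ratio but had a stage mean of 20000 or more. Because the choice used all 8 libraries, the levels and folds of the 49 genes are a description, and no test of them is offered as evidence that they are constant.

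RNA came from turbot (*Scophthalmus maximus*), a flatfish, with 2 fish at each of 4 stages. The stages were phylotypic (3 dpf, days post fertilization), pre-metamorphic (15 dph, days post hatching), climax of metamorphosis (23 dph) and post-metamorphic (37 dph). Embryos of 3 dpf were used whole, whereas from 15 dph on the hind part of the body behind the cloaca was discarded, so the step from 3 dpf to later stages is also a step from whole animals to partial bodies. The samples are grouped by their labels, but the name of the deposited file of replicate 2 of 3 dpf gives its age in days post hatching, and that of replicate 1 has a further digit after the 3. Which is right was not settled, and the number of constant genes and of genes differing at 3 dpf are given below without each of these libraries. The labels name no strain and no treatment at any stage. Counts on genes ranged from 19077018 to 24633023 per library. Each value is from a mixture of tissues. The weight of tissue fixed from each fish had an upper limit, so a sample need not hold the whole sampled body. In such bulk samples fewer cells of a type and less RNA per cell cannot be told apart.

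Genes whose transcripts stay level across tissues and ages are often called housekeeping genes, and they serve the machinery that every cell runs, such as protein synthesis and turnover, RNA processing, transport of vesicles and energy metabolism. They are also used as internal references, against which the transcript of interest is scaled. Flatfish metamorphosis is a hard setting for such a reference. Thyroid hormone drives the eye to migrate, the skull and skin to be remodelled and larval tissue to be replaced, so the makeup of the body changes from stage to stage. In the deposited counts a gene carries an Ensembl identifier and no name. The gene table at hand for names, with 26628 entries, holds no Ensembl identifiers and so could not be matched, and the 49 genes are given by identifier, without symbol, function or sequence.

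The constant genes had mean normalized counts from 508 to 8778, with a median of 1367, against a median of 962 over the well-counted genes. These are counts and not levels per gene length, so they do not rank transcripts by abundance. By class of mean count, 19 of 3305 genes (0.575%) with a mean of 500 to 1000 were constant, 14 of 1834 (0.763%) with 1000 to 2000, 13 of 910 (1.43%) with 2000 to 5000 and 3 of 296 (1.01%) with 5000 or more. The constant genes were thus found at every count level. Their ratio of largest to smallest library ranged from 1.11 to 1.249 with a median of 1.22, while the median over the well-counted genes was 2.44. Their coefficient of variation over the 8 libraries had a median of 6.85%, against 31.4% over the well-counted genes.

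**Figure D1:**
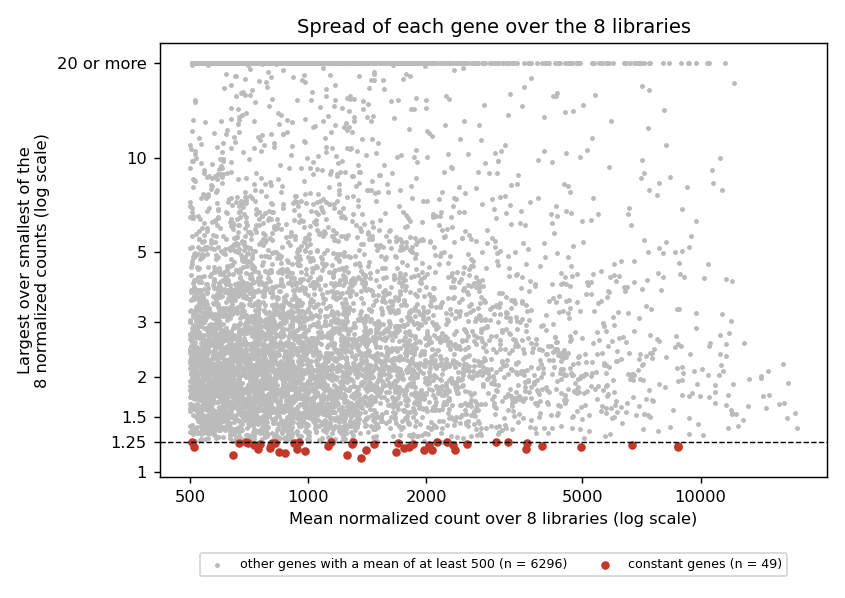
Mean normalized count over the 8 libraries (horizontal, log scale) and largest over smallest normalized count (vertical, log scale, values of 20 or more drawn at 20), with 1 point per gene. The 49 constant genes (red) lie under the dashed line that marks the limit of the rule by their definition and reach means of 8778, and the other well-counted genes (grey) have most of their points well above it.

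No gap in the data marks the limit of 25%. The number of well-counted genes within a ratio of 1.2 was 18, and it was 107 within 1.3, 566 within 1.5 and 2101 within 2. The member nearest the limit, ENSSMAG00000005731, had a ratio of 1.249, and the nearest gene beyond it, ENSSMAG00000000277, had 1.2505. The first held between 2067 and 2582 normalized counts over the libraries and the other between 2018 and 2523. These ratios differ by far less than counting error, so which of the genes falls inside is a matter of the threshold.

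The gene with the smallest ratio was ENSSMAG00000011714. Its normalized counts were 1301 and 1423 at 3 dpf, 1447 and 1378 at 15 dph, 1307 and 1343 at 23 dph, and 1431 and 1308 at 37 dph. The replicates of 3 dpf were farther apart than the means of any pair of stages, and of all pairs of stages only 15 dph and 23 dph did not overlap. ENSSMAG00000005469 came next, with a ratio of 1.13. It had 1337 and 1267 normalized counts at 3 dpf, 1312 and 1181 at 15 dph, 1196 and 1232 at 23 dph, and 1269 and 1260 at 37 dph. Its highest library was an embryo and its lowest a pre-metamorphic larva, whose replicate stood among the highest.

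Below a mean count of 1000, ENSSMAG00000011306 was the steadiest. Its 8 normalized counts were 618 and 644 at 3 dpf, 651 and 615 at 15 dph, 635 and 697 at 23 dph, and 648 and 632 at 37 dph. Only 1 library of 23 dph stood clear of the rest. The variance of this gene was 0.967 times that expected from counting alone, the only one of the 49 at or under 1 and the lowest of the well-counted genes. The gene was picked for its small ratio in these same libraries, so no fixed level is read from this value.

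The highest counts among the 49 belonged to ENSSMAG00000017109 and ENSSMAG00000011790, whose means were 8778 and 8748. ENSSMAG00000017109 had 8187 and 9408 normalized counts at 3 dpf, 9000 and 9187 at 15 dph, 9001 and 7742 at 23 dph, and 8762 and 8935 at 37 dph. Its highest library was an embryo, and the other embryo was its lowest but one. ENSSMAG00000011790, which also had the smallest ratio of the members above 5000 counts, had 9279 and 8557 at 3 dpf, 8864 and 8473 at 15 dph, 8196 and 8365 at 23 dph, and 9834 and 8417 at 37 dph. Again the single highest library, replicate 1 of 37 dph, was not matched by its replicate. The remaining member in this class, ENSSMAG00000020553 with a mean of 6671, was named after its values were seen.

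**Figure D2:**
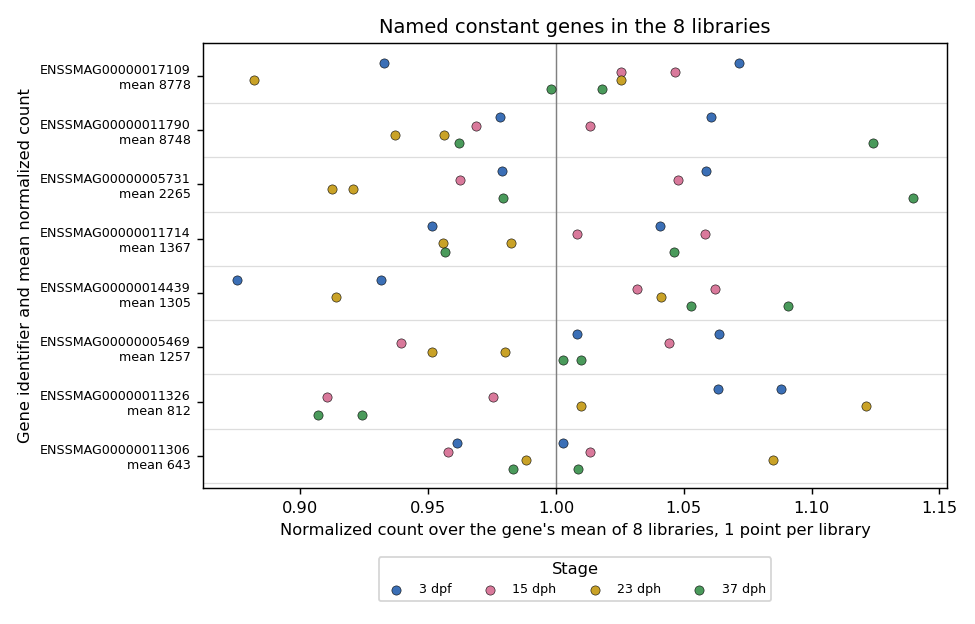
Normalized count of 8 named constant genes divided by the gene's own mean over the 8 libraries (horizontal), with 1 point per library coloured by stage and the mean count under each identifier. All points lie between 0.875 and 1.14 of the mean, as the rule that chose the genes requires of their ratio, and replicates of a stage are often as far apart as stages.

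Between the juvenile and the embryo, the member with the largest positive difference was ENSSMAG00000014439. It had 1374 and 1423 normalized counts at 37 dph, against 1215 and 1142 at 3 dpf, a log2 fold change of 0.25 (standard error 0.15). The most negative was that of ENSSMAG00000011326, with 736 and 750 at 37 dph against 883 and 863 at 3 dpf, a log2 fold change of -0.23 (standard error 0.14). In both genes the 2 stages did not overlap, but neither passed the quasi-likelihood test of edgeR, with adjusted p-values (Benjamini-Hochberg) of 0.15 and 0.18. ENSSMAG00000011326 was high again at 23 dph, with 820 and 910, so its course was not a steady decline.

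A full separation of the later stages from the embryo was seen in 4 of the 49 genes, against 60.4% of the well-counted genes. The later stages were higher in 2 of them (25.7% of the well-counted genes) and lower in the other 2 (34.7%). Nothing is read from these shares, since the rule used the same libraries. These 4 were picked out after their values were seen. ENSSMAG00000020131 had 827 to 884 normalized counts in the 6 later libraries, against 716 and 745 at 3 dpf. ENSSMAG00000003030 had 765 to 866 later, against 725 and 741 at 3 dpf. Both were thus a little higher after hatching in every library.

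The opposite held for ENSSMAG00000001735 and ENSSMAG00000012475. ENSSMAG00000001735 had 4520 to 5075 normalized counts in the later libraries, against 5445 and 5370 at 3 dpf. With upper-quartile scaling its later libraries overlapped those of 3 dpf. For ENSSMAG00000012475 the stages fell into a line, with 1918 and 1853 at 3 dpf, 1816 and 1837 at 15 dph, 1719 and 1671 at 23 dph, and 1669 and 1604 at 37 dph. It was the only one of the 49 whose stages followed each other in order of age with no overlap, and its extremes still differed by no more than 1.2 times. The share of the well-counted genes with such an order is not given here, and nothing is read from this count. Stage means alone fell in order of age in 3 of the 49 and rose in 1, against 18.9% and 15.7% of the well-counted genes. Both libraries of 37 dph lay outside the range of all earlier libraries in 8 of the 49 genes, 4 above it and 4 below it, against 49% of the well-counted genes, 19.6% above and 29.4% below.

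What variation the constant genes had was only in part counting error. The smallest raw count behind any of their values was 315, for which counting alone gives an error of 5.63%. The median variance of the 49 genes was 6.12 times that expected from counting, against 111 times over the well-counted genes, and 28 of the 49 were above 5 times. In the class with a mean of 500 to 1000 the median was 3.42 times, and in the class of 5000 or more it was 33.9 times, at nearly equal coefficients of variation of 6.85% and 6.33%. The limit thus left room for more than counting error in the genes with high counts, while in those near 500 counts both were closer.

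Stage means held a median of 50.4% of the variation of a constant gene, where 3 of 7 degrees of freedom alone give 42.9%, and a median of 89.9% over the well-counted genes. The largest over the smallest stage mean had a median of 1.13 and reached 1.21. The single highest library was one of 3 dpf for 17 members, of 15 dph for 9, of 23 dph for 7 and of 37 dph for 16. With upper-quartile scaling those numbers were 1, 27, 10 and 11, so the order of stages within the narrow range depends on the scaling. Between the replicates of a stage, the median absolute log2 difference of the 49 genes was 0.12 for 3 dpf, 0.046 for 15 dph, 0.090 for 23 dph and 0.11 for 37 dph. The replicates of 3 dpf and 37 dph stood farthest apart in the constant genes, as they did over the well-counted genes, where these medians were 0.29, 0.090, 0.11 and 0.21.

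In edgeR (quasi-likelihood test, TMM normalization), fitted on 18987 genes in all 8 libraries with 1 mean per stage, 0 of the 49 genes had an adjusted p under 0.05 in any of the 6 pairs of stages, against 84.8% of all genes tested. No member had an unadjusted p under 0.05 either, and DESeq2 called 0 members. The share of all genes called was 60.6% for 15 dph over 3 dpf, 61.9% for 23 dph over 3 dpf, 69.2% for 37 dph over 3 dpf, 2.15% for 23 dph over 15 dph, 43.2% for 37 dph over 15 dph and 27.1% for 37 dph over 23 dph. The fold changes of the members ranged from -0.23 to 0.29 on the log2 scale over the 6 pairs. Their median absolute log2 fold change was 0.095 for 37 dph over 3 dpf, against 0.98 over all genes tested. These counts follow from the rule and add no evidence to it.

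The median standard error of a member's log2 fold change was 0.15 in each of the 6 pairs, and that of the well-counted genes was 0.18. The members were chosen for a small spread over the same libraries, so their standard errors are low by that choice and give no limit on the change that could have been detected. With upper-quartile normalization, which shifted the median gene by 0.14 on the log2 scale for 15 dph over 3 dpf, 3 of the 49 members were called. The share of all genes called with this normalization is not given here. With TMM it was 60.6% for 15 dph over 3 dpf. They were ENSSMAG00000010624 (named after its values were seen), ENSSMAG00000014439 and ENSSMAG00000020131, all higher at 15 dph than at 3 dpf, with log2 fold changes of 0.39, 0.38 and 0.35 and adjusted p-values in edgeR of 0.046, 0.045 and 0.046. ENSSMAG00000020131 was also called higher at 23 dph than at 3 dpf, with a log2 fold change of 0.37 and an adjusted p of 0.037.

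Constant here means constant relative to the typical gene. As a share of all counts on genes, none of the 49 was constant. Scaled to the total count per library, their ratio of largest to smallest ranged from 1.47 to 2.11 with a median of 1.70. All 49 had their lowest stage mean at 37 dph, and 47 had their lowest value in replicate 1 of 37 dph. ENSSMAG00000011714 stood at 64.9 and 84.5 CPM (counts scaled to an equal total in every library) at 3 dpf, 81.4 and 78.3 at 15 dph, 59.5 and 60.8 at 23 dph, and 49.8 and 54.7 at 37 dph. On this scale the range at 15 dph lay within that at 3 dpf, while both libraries of 23 dph were under those of the earlier stages and both juvenile libraries were under every earlier one, as in 36 of the 49 genes and 45.1% of the well-counted genes.

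Over the 49 genes, the CPM at 37 dph was a median of 0.702 times that at 3 dpf, with a range from 0.599 to 0.837, while the median over the well-counted genes was 0.616. Together the constant genes took 0.539% ± 0.0634 of the counts on genes in embryos, 0.555% ± 0.00033 at 15 dph, 0.438% ± 0.0037 at 23 dph and 0.378% ± 0.0417 at 37 dph (SD, n = 2 at each stage). The 20 genes with the most counts in each library took 10.8% ± 1.02 of the counts in embryos and 12.7% ± 0.0612 in the 15 dph libraries. They took 19.0% ± 0.103 in those of 23 dph and 22.8% ± 2.98 in those of 37 dph. From 15 dph on their share thus rose while that of the constant genes fell, and their part in this fall was not tested. The size factor of replicate 1 of 37 dph was 0.521 times that of replicate 2 of 3 dpf, although its total count was 0.888 times as large. The counts cannot tell which of the 2 scales follows the amount of a transcript per cell.

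**Figure D3:**
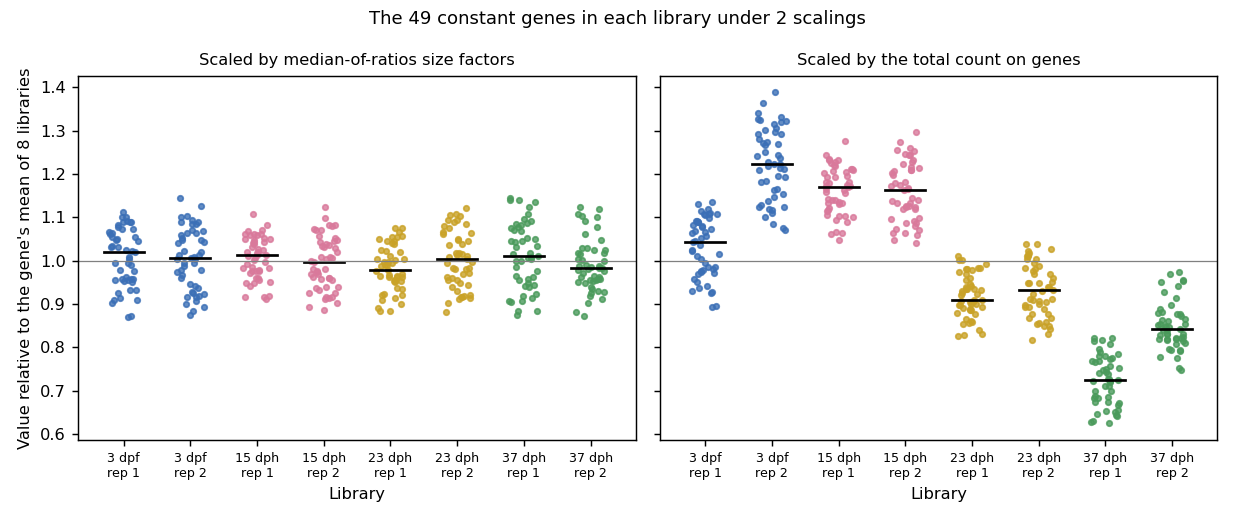
Value of each of the 49 constant genes relative to its own mean over the 8 libraries (vertical), by library and stage (horizontal), scaled by size factors (left) and by the total count on genes (right). Points are genes and black bars are medians, which lie between 0.979 and 1.02 on the left and range from 1.22 in replicate 2 of 3 dpf to 0.723 in replicate 1 of 37 dph on the right.

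The choice of genes also turned on the scale. With TMM in place of median-of-ratios, 52 genes met the rule and 44 of them were among the 49. With upper-quartile scaling it was 53 genes, of which 22 were shared, and those 22 met the rule under all 3 of these scalings. With the total count 19 genes met it, and 0 were shared. Those 19 genes had a ratio of 1.5 to 2.06 between their largest and smallest counts after size factors, and 18 of them had their highest stage mean at 37 dph. No gene was constant on both of these scales.

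Each library was then left out of the choice in turn and read afterwards, so that it had no part in choosing the genes. Size factors of the choosing libraries were computed again from those 7. Without replicate 1 of 15 dph 59 genes were constant over the other 7 libraries, and 47 of them (79.7%) stayed within the limit with the library added. The share was 83.0% of 53 genes for replicate 2 of 15 dph, 72.7% of 66 for replicate 1 of 23 dph and 77.8% of 63 for replicate 2 of 23 dph. Larval and climax libraries were thus met by most genes chosen without them, with the other replicate of the stage among the choosing libraries. Between 44 and 52 genes stayed in every run, so the shares mainly follow the number of genes chosen.

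The embryo and juvenile libraries were met by a smaller share of the genes chosen. Of 136 genes chosen without replicate 1 of 3 dpf, 47 (34.6%) stayed within the limit, and of 106 chosen without replicate 2 it was 48 (45.3%). For 37 dph the share was 52.5% of 99 genes without replicate 1 and 59.1% of 88 without replicate 2. In replicate 1 of 3 dpf the values reached from 0.577 to 2.23 times the mean of the other 7 libraries, even though the other embryo had been among the libraries that chose the genes. In replicate 1 of 15 dph they reached only from 0.761 to 1.2 times. Of the 49 genes, 41 were chosen in all 8 of these runs. A gene within the limit over 8 libraries is within it over any 7, unless the new size factors or the minimum mean shift it. This count is therefore no test of the members.

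**Figure D4:**
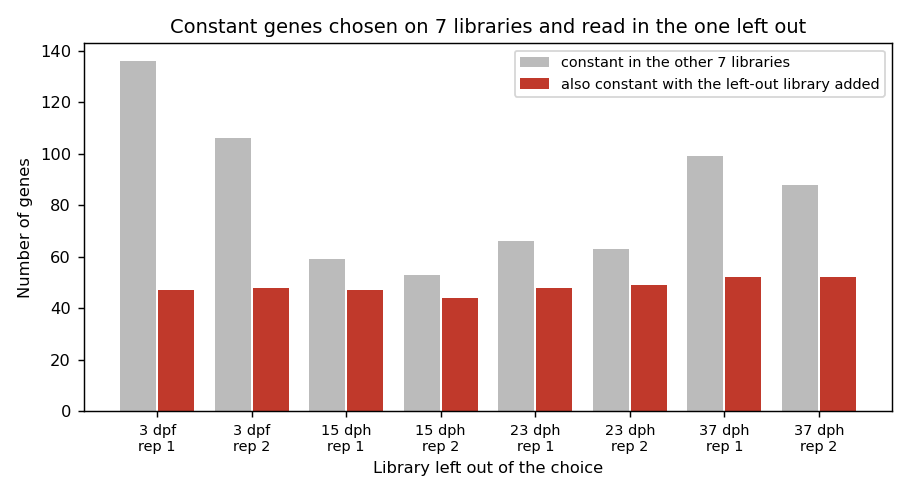
Number of genes (vertical) that were constant in 7 libraries (grey) and that stayed constant when the left-out library was added (red), by the library left out (horizontal). Between 53 and 136 genes were chosen, most when an embryo was left out, and between 44 and 52 stayed constant.

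To see how many genes each stage kept out, genes were chosen on the 6 libraries of 3 stages and read at the stage left out. Size factors were kept from all 8 libraries. Without 23 dph 103 genes were constant and 48.5% of them stayed within 25% when 23 dph was added. Without 15 dph it was 45.4% of 108 genes. Without 37 dph it was 16.2% of 302 genes, and without 3 dpf 8.78% of 558 genes. The genes that stayed numbered 50 for 23 dph and 49 for each other stage. They were in effect the 49 members, since a gene within the limit over 8 libraries is within it over any 6. Each share therefore restates how many genes the other 3 stages let through. The genes chosen without 15 dph or without 23 dph all stayed within a ratio of 2, whereas 85.4% did so for 37 dph and 72.2% for 3 dpf. Most genes that were steady from larva to juvenile thus left the limit when the embryo libraries were added. The replicates of 3 dpf alone differed by a median of 0.29 on the log2 scale over the well-counted genes, where the limit is 0.32. This share therefore does not measure a difference in mean level. The genes chosen without 3 dpf and those chosen without 37 dph shared 62 genes, 11.1% of the 558 and 20.5% of the 302.

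The mean at the left-out stage took no part in the choice and could be tested. In edgeR 79 of the 558 genes chosen without 3 dpf differed at least 2-fold between the 3 later stages and 3 dpf at an adjusted p under 0.05. That is 14.2% of them, against 41.7% of all genes tested and 31.7% of the well-counted genes. In the later stages 40 rose and 39 fell, against 25.8% and 15.9% of all genes tested. The minimum mean of 500 was applied to the 6 later libraries alone. Genes low at 3 dpf could thus enter the choice, and genes low in the later stages could not. The split by direction is therefore partly set by the choice, and nothing is read from it. With upper-quartile normalization 43 rose and 27 fell, without replicate 1 of 3 dpf 40 rose and 25 fell, and without replicate 2 of 3 dpf 37 rose and 60 fell, so the balance between the directions rests on scaling and on single libraries of 3 dpf, the stage whose file names differ from the labels. With no minimum fold 352 of the 558 differed, 113 higher and 239 lower in the later stages, against 70.4% of all genes tested. The median log2 fold change of the 558 was -0.23, against -0.18 over the well-counted genes. All later libraries lay above both of 3 dpf in 25.7% of the well-counted genes and below them in 34.7%, whose 2-fold calls were not split by direction. The median absolute log2 fold change of the 558 genes was 0.45, against 0.81 over all genes tested. Because the libraries that chose the genes had a small spread by that choice, their adjusted p-values are too small, and the 2-fold minimum carries the call.

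The gene with the largest rise after 3 dpf was ENSSMAG00000000743. It held 3128 to 3546 normalized counts in the 6 later libraries, against 16.0 and 17.1 at 3 dpf, which gives a log2 fold change in edgeR of 7.67 ± 0.20 (SE) with an adjusted p of 3.47e-09. The embryo was thus far below all later libraries, which differed among themselves by less than the rule's limit, as the choice required. The largest fall was that of ENSSMAG00000012240, with 468 to 585 in the later libraries against 2385 and 2365 at 3 dpf, which gives -2.18 ± 0.11 with an adjusted p of 4.2e-08. Its step also lay between 3 dpf and 15 dph, since the choice required the later libraries to be level. Whether these steps came with age or with the cut body cannot be told apart.

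Without 37 dph, 19 of the 302 genes differed at least 2-fold between 37 dph and the 3 earlier stages, 6.29% of them against 26.7% of all genes tested and 23.5% of the well-counted genes. At 37 dph 3 rose and 16 fell, against 17.5% and 9.21% of all genes tested, which were not held to a mean of at least 500. The chosen genes had to reach that mean over the 6 earlier libraries, and the well-counted genes over all 8 libraries. Genes low in the earlier stages that rose at 37 dph could thus not enter the choice. The split by direction is therefore partly set by the choice, and nothing is read from it. The 2-fold calls of the well-counted genes were not split by direction. Both 37 dph libraries lay above all earlier ones in 19.6% of the well-counted genes and below them in 29.4%. With no minimum fold 154 of the 302 chosen genes differed, 45 higher and 109 lower at 37 dph, against 55.5% of all genes tested. The largest rise was that of ENSSMAG00000009151, with 2101 and 2277 normalized counts at 37 dph against 738 to 907 in the 6 earlier libraries, which gives a log2 fold change in edgeR of 1.4 ± 0.12 (SE) with an adjusted p of 4.78e-06. The largest fall was that of ENSSMAG00000016139, with 703 and 590 at 37 dph against 1942 to 2415 earlier, which gives -1.73 ± 0.15 with an adjusted p of 4.72e-06. Both genes were level from the embryo through climax by the rule that chose them. They were named for the largest rise and fall at 37 dph, where both libraries lay outside the range of all earlier ones. Bodies of 15, 23 and 37 dph were trimmed alike, while the earlier libraries also include the whole embryos.

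Without 15 dph 0 of 108 genes, and without 23 dph 0 of 103 genes, differed at least 2-fold from the other 3 stages in edgeR, against 12% and 10.6% of all genes tested and 7.22% and 8.98% of the well-counted genes. DESeq2 gave 0 as well. With no minimum fold, 16 and 5 genes differed at an adjusted p under 0.05, against 29.8% and 23.4% of all genes tested at the same limit. At an unadjusted p under 0.05 it was 30 and 18 genes, for which the share of all genes tested is not given here. Fold changes reached from -0.75 to 0.49 on the log2 scale at 15 dph and from -0.41 to 0.63 at 23 dph. When 15 dph or 23 dph was left out, the other of the pair was among the stages that chose the genes, and these stages differed least from each other over all genes.

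**Figure D5:**
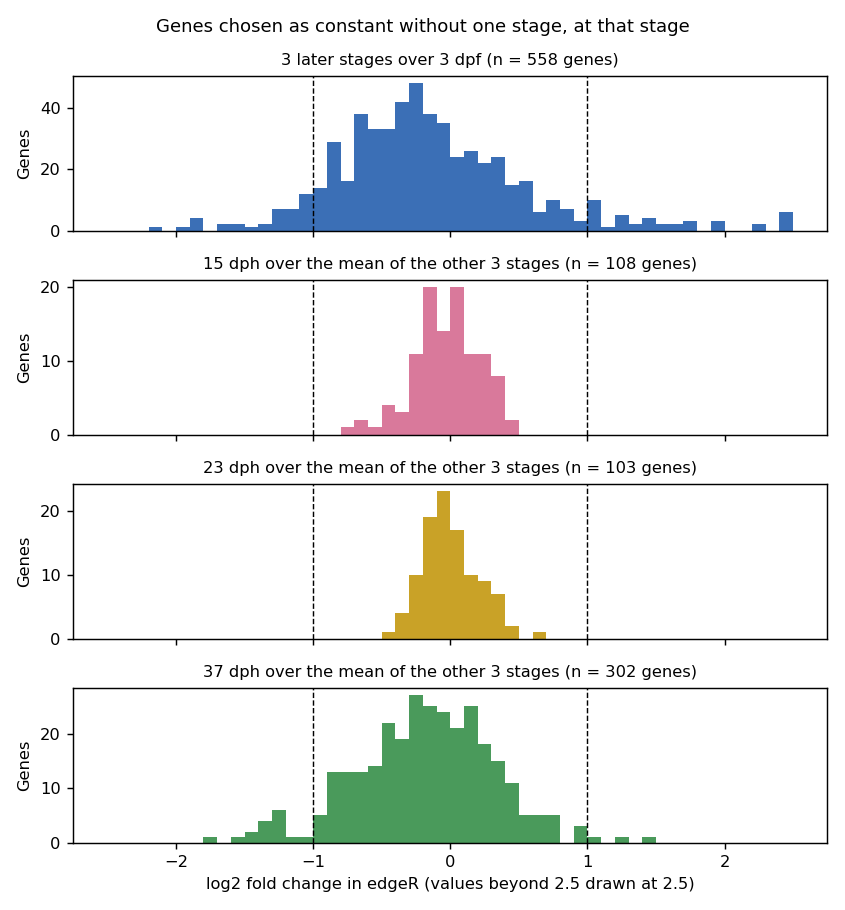
Distribution of log2 fold changes in edgeR (horizontal) at the stage left out of the choice, with the number of genes on the vertical axis and dashed lines at a 2-fold change (values past the axis are drawn in its outermost bin). The distributions for 3 dpf (558 genes) and 37 dph (302 genes) reach past 2-fold in both directions, and those for 15 dph (108 genes) and 23 dph (103 genes) stay within it.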

How the data were processed

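RNA-seq was read from 8 turbot, with 2 biological replicates at each of 4 stages. The authors made stranded mRNA libraries, trimmed adapters (Trimmomatic), aligned to the turbot assembly ASM1334776v1 (STAR) and obtained counts per gene (HTSeq-count). The deposited values are raw counts, neither normalized nor pooled, and the strand setting of the counting is not given in the sources used here, so values of genes that overlap, or that have near-identical copies, are uncertain. The 5 summary entries of each table were left out, and 15.3% to 18.9% of the aligned entries had no feature. Counts on genes ranged from 19077018 to 24633023, and counting errors cover counting only.

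The replicate numbers only name samples. The p-values rest on the spread between the 2 fish of a stage, pooled over the 4 stages and drawn towards that of the other genes. Size factors came from the median of ratios over the genes counted in all 8 libraries, and the rule was applied to the counts divided by them. The members and lists were chosen with earlier results of these data known. Tests were run in R 4.3.3 with edgeR 4.0.16 (filterByExpr, TMM, quasi-likelihood, 4 residual degrees of freedom, adjustment over 18987 genes). The standard error is the log2 fold change over the square root of F. The procedure was tested on simulated data. DESeq2 1.42.0 served as an alternative, besides other scalings, limits, filters, thinning of reads, each replicate left out and the replicate number as a block.

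Named genes were the 2 steadiest, the steadiest in each of 3 classes of count, the 2 with the highest counts, those on either side of the limit, those with the extreme fold changes of 37 dph over 3 dpf, and the extremes at 3 dpf and 37 dph when that stage was left out. Others are marked in the text as named after their values were seen. A list of housekeeping genes and sequences were not used, because the gene table used here holds no Ensembl identifiers.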

Additional observations from a re-analysis of the deposited data

How the results depend on the processing

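Other settings were tried for 28 results, which gave 215 alternative values, of which 180 were taken as kept and 35 as moved. Of the 180, 78 were log2 fold changes of named genes, which kept their sign and their side of the adjusted p limit. The other kept values stayed within 1.5 times for counts, the 95% Wilson interval for shares of genes or the spread for ratios. Many of the kept counts were 0 in both settings, so the number kept is no measure of how robust the results are. The cause of a move was not tested unless the setting gives it. The 49 constant genes were 19 with the total count, 18, 107, 566 and 2101 at ratio limits of 1.2, 1.3, 1.5 and 2, 84 and 30 at minimum means of 100 and 1000, and 86 by coefficient of variation. With each replicate left out they numbered from 53 to 136, with 136 and 106 without replicate 1 or 2 of 3 dpf and 99 and 88 without replicate 1 or 2 of 37 dph. The limit is easier to meet over fewer libraries, so higher numbers follow from the rule. Thinned to the smallest total, 46 genes met the rule, 40 of them among the 49.

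At limits of 1.2 and 1.3 the share staying constant was 5.83% and 12.7% at 3 dpf and 11.4% and 22.04% at 37 dph, and at 1.2 it was 38.3% at 23 dph. With no minimum fold 352, 16, 5 and 154 genes differed at the left-out 3 dpf, 15 dph, 23 dph and 37 dph. With upper-quartile scaling 3 members differed between stages instead of 0, and the highest library was of 3 dpf in 2.04% and of 15 dph in 55.1% of members, against 34.7% and 18.4%.

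The replicate numbers are shared between stages only as numbers. Deviations of same-numbered libraries correlated from -0.139 to 0.234 over the 6 pairs of stages, across genes. With the replicate number as a block 0 members differed between stages, and 77, 0, 0 and 19 genes differed at the left-out stages, so it moved no count by over 1.5 times. With 1 replicate of a stage left out, the lone library was assumed to vary like the other stages, and the counts at 3 dpf ranged from 65 to 97 and at 37 dph from 18 to 23.

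Depth limits small steps: near 500 counts the error of counting alone is 4.47%.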
